A study of Mus musculus with 15 samples.

Results

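The family of miR-148 and miR-152 was followed across small RNA libraries of mouse midbrain. Its members were chosen by name, as every listed arm of miR-148a, miR-148b or miR-152. This gave 5 of the 396 listed mature miRNAs, namely mmu-miR-148a-3p, miR-148b-3p, miR-152-3p, mmu-miR-148a-5p and miR-148b-5p. The prefix mmu, for mouse, is left out from here on, and miR-152-5p was not analysed here. An arm is one of the mature strands cut from a hairpin precursor, named 3p or 5p after the end it comes from. The family was picked because miR-148a-3p held the largest part of the reads in the A30P libraries. Values of the family that set A30P against WT are therefore given as a description, with no test.

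The series compared midbrain of wild-type C57BL/6 mice (WT, 8 samples) with midbrain of C57BL/6 mice whose genotype is labelled A30P alpha-synuclein +/+ (A30P, 7 samples). All mice were 6 months old. A30P is a form of the presynaptic protein alpha-synuclein linked to familial Parkinson's disease, and the sources used here do not give the promoter or mouse line behind it. Because the labels do not state that samples are separate animals, p-values speak only of the variation among these libraries, part of which may be technical.

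Mature miRNAs guide Argonaute proteins to messenger RNAs, and pairing of the seed, bases 2 to 8 of the miRNA, sets most of their targets. The 3p arms of this family are known to repress DNMT1, the maintenance DNA methyltransferase. In liver, miR-148a is known to restrain the LDL receptor and the cholesterol exporter ABCA1. In mouse dendritic cells the family is known to restrain CaMKII alpha, a kinase that is abundant at synapses. None of these targets was measured here. The usual abundant miRNAs of brain tissue are miR-9, miR-128 and the let-7 family.

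The mature sequences are shown because the results turn on how alike the 3p arms are. They are RefSeq sequences (GRCm38.p6) written 5′ to 3′ with the seed in capitals.
miR-148a-3p: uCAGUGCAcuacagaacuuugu
miR-148b-3p: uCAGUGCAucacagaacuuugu
miR-152-3p: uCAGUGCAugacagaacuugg
miR-148a-5p: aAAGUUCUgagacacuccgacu
miR-148b-5p: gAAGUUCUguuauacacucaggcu

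The 3p arms had the same seed, and no other miRNA among the 349 listed ones with a RefSeq sequence had it. Both 5p arms shared a different seed, which no other of those 349 had either. With positions counted from 1 at the 5′ end, miR-148b-3p differed from miR-148a-3p by C9U and U10C, so 20 of 22 bases were identical, including the first 8 and the last 12. miR-152-3p differed from miR-148a-3p by C9U, U10G and U20G over 21 compared positions and lacked the last base. The sources used here do not give how reads were split between these similar arms.

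The hairpins lie on different chromosomes. Mir148a is at chr6:51269812-51269910 on the minus strand (GRCm38), outside any other annotated gene, and Nfe2l3 is the nearest protein-coding gene at 162760 bases. Mir148b is at chr15:103285125-103285221 on the plus strand in an intron of Copz1. Mir152 is at chr11:96850393-96850465 on the plus strand in an intron of Copz2. Copz1 and Copz2 encode the alternative zeta subunits of the COPI coat of Golgi vesicles, and neither was measured here. The Mir148a hairpin is printed with both mature arms in capitals, the 5p arm first, to show the strands whose balance is described further on.
Mir148a: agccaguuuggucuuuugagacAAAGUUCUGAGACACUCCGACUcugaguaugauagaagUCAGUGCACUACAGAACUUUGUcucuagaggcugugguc

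The libraries differed in depth between the genotypes. The reads of listed miRNAs numbered 724813 to 9762286 per WT library and 21731 to 3500431 per A30P library. The 4 shallowest A30P libraries, replicates 4, 7, 1 and 2, were under 100000 reads, and replicate 6 was the deepest. One read was worth 0.0848 to 0.806 normalized counts in WT and 0.174 to 56.4 in A30P. The brain list (15 arms of miRNAs typical of brain) held 13.0% to 22.3% of listed reads in WT and 1.14% to 11.0% in A30P, so brain miRNAs were present in every library and lower in share in A30P. By limma 1 of these 15 arms was called higher in A30P, 12 lower, and 2 did not pass, near the 8.33% higher and 71.0% lower of all 396 miRNAs. Shares also depend on the dominant miRNAs: miR-148a-3p and miR-151-3p together held 0.842% to 2.51% of listed reads in WT. In A30P they held 13.9% in replicate 6 and 52.8% to 80.1% in the other libraries. A smaller part of the reads was thus left there for all other miRNAs. In whole tissue, fewer cells of a type and less RNA per cell cannot be told apart. All WT columns carry one letter tag and all A30P columns another, and if the tag marks a batch, batch and genotype cannot be told apart.

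miR-148a-3p, the guide strand of its hairpin, was the most abundant family member in every library. Its normalized count in WT was 1537 at the lowest (replicate 1), 5178 at the median and 8113 at the highest (replicate 4). In A30P it was 70990.1 at the lowest (replicate 6), 487544 at the median and 906734 at the highest (replicate 2). The groups did not overlap, and the lowest A30P library was above the highest WT library. Of all 396 miRNAs, 16 (4.04%) lay higher in A30P without overlap.

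Within WT the arm was a mid-to-high abundance miRNA. It ranked from 22 to 44 in single WT libraries and was 28 by its mean, between miR-191-5p, encoded within the Dalrd3 gene, at 5073 ± 2316 (SD, n = 8) and miR-219a-2-3p, from an oligodendrocyte miRNA hairpin, at 4932 ± 1530. The means of these neighbours lay within the spread of miR-148a-3p itself (4961 ± 2445). Further up were let-7e-5p (5217 ± 3059) and miR-7b-5p (5242 ± 5082), and further down miR-129-5p (4749 ± 3030) and miR-541-5p (4352 ± 560). These 7 miRNAs were not separated beyond their spread. By mean, miR-9-5p was first in WT at 60492 ± 36673.

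In A30P libraries the same arm stood at the top. It was the miRNA with the most reads in 5 of 7 A30P libraries, and was in place 2 behind let-7f-5p in replicate 6 and behind miR-151-3p in replicate 7. By mean, miR-151-3p (323037 ± 215802, n = 7), let-7f-5p (70585 ± 14746) and let-7c-5p (25676 ± 11710) came next. As a share of listed reads, miR-148a-3p took 34.8% to 48.6% in 6 A30P libraries and 11.6% in replicate 6 (Wilson 95% interval 11.6% to 11.7%). In WT the share ran from 0.263% to 0.978%.

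miR-148b-3p differs from miR-148a-3p at positions 9 and 10 only, yet its level did not follow it. Its normalized count in WT was 142 at the lowest (replicate 1), 721 at the median and 1487 at the highest (replicate 5). In A30P it was listed at 0 in replicate 4, was 228 at the median and reached 4670 in replicate 6. The groups overlapped: 2 A30P libraries were below all WT libraries, 1 was above all of them, and the other 4 were inside the WT range. Replicate 6 rested on 26818 reads, whereas the other A30P libraries held 0 to 178 reads of this arm. For replicate 4, 0 of 21731 reads still leaves room for 169 normalized counts (3 reads), which is above the lowest WT value.

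The group means of miR-148b-3p were 829.4 ± 427 (SD, n = 8) in WT and 841 ± 1693 (n = 7) in A30P, a ratio of 1.01 that rests on replicate 6. On the log2(normalized count + 1) scale the fitted difference, A30P minus WT, was -2.13 (SE 1.17). It was -2.94 without replicate 6, and 0.23 without the 4 libraries under 100000 reads. The sign of the difference thus changed with the libraries kept.

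miR-152-3p, from the Copz2 intron, was the least abundant 3p arm. Its normalized count in WT was 15.7 at the lowest (replicate 8), 162 at the median and 233 at the highest (replicate 5). In A30P it was listed at 0 in replicates 4 and 7, was 20.1 at the median and reached 55.9 in replicate 6. No A30P library was above the WT range and 3 were below all WT libraries, so the groups overlapped, and only through WT replicates 1 and 8, the shallowest WT libraries. The fitted log2 difference was -3.20 (SE 1.02). Only in replicate 6 did this arm exceed 16 reads in A30P (321 reads), and the zeros of replicates 4 and 7 allow levels up to 169 and 154 normalized counts, about the WT median.

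The 5p arms, which are the passenger strands of their hairpins, were near the limit of detection. miR-148a-5p was at 2.16 to 6.11 normalized counts in WT (median 4.67), from 6 to 72 reads a library. In A30P it had reads in 2 of 7 libraries, with 12.0 normalized counts in replicate 6 (69 reads) and 8.52 in replicate 3 (4 reads), both above the WT range. In the other 5 A30P libraries it was at 0, which allows 7.72 normalized counts in replicate 8 and 52.6 or more in replicates 1, 2, 4 and 7, so a level like that of WT was not detectable there.

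miR-148b-5p was at 0.806 to 16.7 normalized counts in WT (median 9.75). In A30P it had reads in 4 of 7 libraries, at 40.2 in replicate 2 from 2 reads, 6.79 in replicate 6 from 39 reads, 5.15 in replicate 8 and 4.26 in replicate 3. The only well-counted A30P value, that of replicate 6, was inside the WT range.

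**Figure D1:**
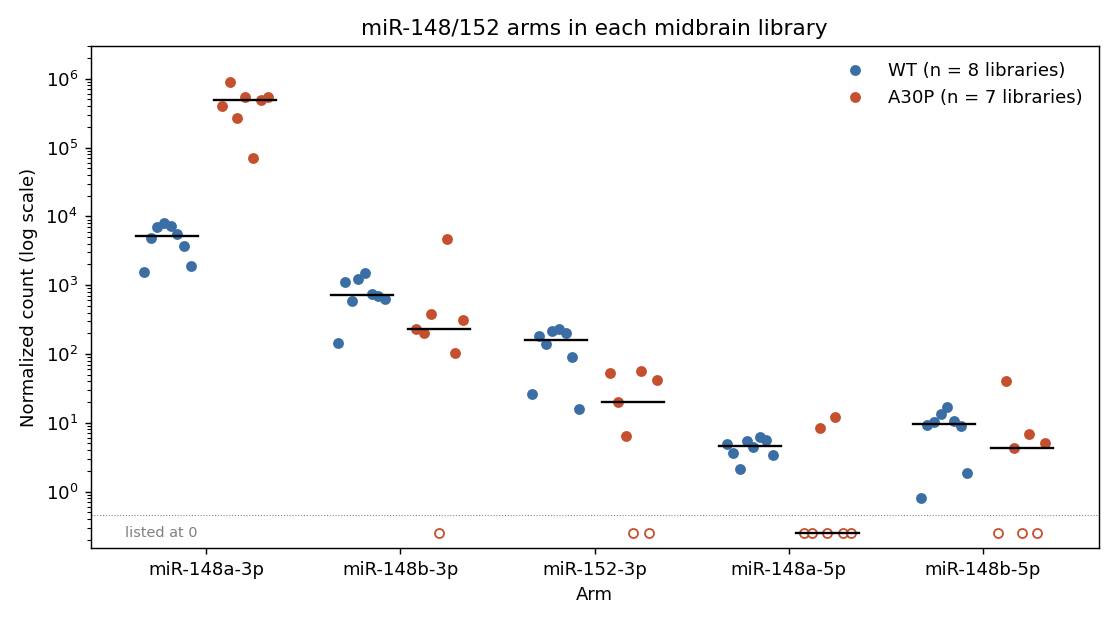
Normalized count of each family arm (log axis) in the 8 WT and 7 A30P libraries, with 1 point per library, a black bar at the group median and open points below the dotted line for libraries where the arm was listed at 0. miR-148a-3p is the only arm whose groups do not overlap, with WT libraries up to 8113 and A30P libraries from 70990.1 upward.

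Ratios of reads within a library do not depend on scaling between libraries. miR-148a-3p had 3.00 to 11.9 times the reads of miR-148b-3p in WT libraries (median 5.96). In A30P replicate 6 it had 15.2 times as many (exact 95% interval 15.02 to 15.39). In A30P replicates 3, 8, 1 and 2 it had 718, 1773, 1774 and 4512 times as many, in replicate 7 it had 4758 times as many from 2 reads of miR-148b-3p (interval 1317 to 39294), and in replicate 4 at least 3188 times. The ratio was higher in all 7 A30P libraries than in any WT library. That separation is a description only, because the family was picked for the A30P reads of miR-148a-3p. Ratios of miR-148a-3p to miRNAs outside the family were not computed. Intervals cover counting error only, since the reads carry no molecular identifiers.

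Of the reads of the 3p arms together, miR-148a-3p held 74.5% to 90.6% in WT, miR-148b-3p 7.62% to 24.8% and miR-152-3p 0.620% to 3.10%. In A30P miR-148a-3p held 93.8% in replicate 6 and 99.9% or 100% in the other 6 libraries. The pool of reads with this seed was 0.292% to 1.15% of listed reads in WT and 12.4% to 48.6% in A30P. Against the reads that remain when miR-148a-3p and miR-151-3p are taken out, miR-148b-3p stood at 245 to 1746 reads per 1000000 of the rest in WT (median 1277) and at 0 to 8896 in A30P (median 627), and the groups still overlapped.

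The arms of the Mir148a hairpin also kept no common ratio. In WT, miR-148a-3p had 318 to 3210 times the reads of miR-148a-5p (median 1105). In A30P it had 5909 times as many in replicate 6 (interval 4669 to 7594) and 31930 times in replicate 3 (interval 12470 to 117190). In replicate 8, which held 212775 reads of the 3p arm and 0 of the 5p arm, it had at least 70925 times as many. In replicates 2 and 1 the bounds were at least 15040 and at least 7687. Those 5 libraries exceeded every WT library, while in replicates 4 and 7 the bounds of 3188 and 3172 fell just short of the highest WT ratio. That WT ratio, in WT replicate 3, had an interval of 1837 to 6212, which overlapped that of A30P replicate 6. By the rise of the mean log2 arm difference, 3p minus 5p, from WT to A30P, miR-148a was in place 3 of 93 hairpins. The largest rise was that of miR-151. These places are a description, since the family was picked for the 3p arm in A30P. The rise of miR-148a also takes in 5 of 7 A30P libraries where its 5p arm was listed at 0. Those zeros enter the log2 mean as 0 normalized counts, though depth allows more, so the size of this rise is not settled. For the Mir148b hairpin the 3p arm had 56.9 to 334 times the reads of the 5p arm in WT, and 688 times in A30P replicate 6 (interval 503 to 967). In A30P replicates 3, 8 and 2 it had 89.0, 60.0 and 5.00 times as many, each from 2 reads of the 5p arm. In A30P replicate 1 it had at least 4.33 times as many, and replicates 4 and 7 had too few reads for a ratio.

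**Figure D2:**
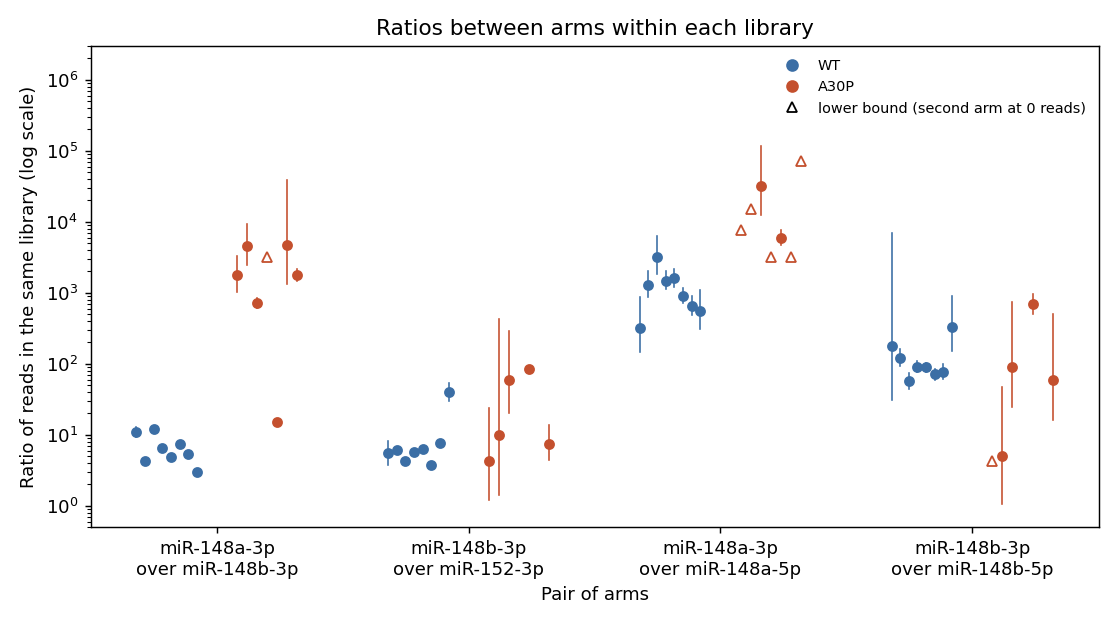
Ratio of reads between 2 arms of the same library (log axis) for 4 pairs, with 1 point per library, lines for exact 95% counting intervals and open triangles for lower bounds where the second arm had 0 reads. The ratio of miR-148a-3p to miR-148b-3p is 3.00 to 11.9 in WT and 15.2 or more in A30P, whereas the ratios of miR-148b-3p to miR-152-3p overlap between the genotypes.

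The ratio of miR-148b-3p to miR-152-3p was narrow in most WT libraries. miR-148b-3p had 3.71 to 7.65 times the reads of miR-152-3p in 7 WT libraries and 40.1 times in WT replicate 8. In A30P the ratio was 7.50 in replicate 8 and 83.5 in replicate 6, and the other 5 libraries had 3 or fewer reads of miR-152-3p, among them replicate 3 with a ratio of 59.3 (interval 19.98 to 290.4).

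Comparisons inside WT did not use the values for which the family was picked. There the order of levels was miR-148a-3p, miR-148b-3p, miR-152-3p, miR-148b-5p and miR-148a-5p. miR-148a-3p was above miR-148b-3p by 2.62 ± 0.67 (SD, n = 8) on the log2 scale, miR-148b-3p above miR-152-3p by 2.78 ± 1.04, and miR-152-3p above miR-148b-5p by 3.65 ± 0.55. Each of these differences had the same direction in 8 of 8 libraries (exact sign-flip tests, two-sided, p = 0.0078 each, the smallest p that 8 libraries allow, 5 pairs compared). The 5p arms were not separated beyond their spread: miR-148b-5p was above miR-148a-5p in 6 of 8 libraries, by 0.60 ± 1.20 (exact sign-flip test, p = 0.188). The arms are 21 to 24 bases long. The part of length in these orders was not tested, and the capture of single sequences into a library was not measured.

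Both hairpins favoured the 3p arm in WT. The mean log2 difference, 3p minus 5p, was 9.66 for miR-148a (SE 0.33, adjusted p = 4.1e-10) and 6.44 for miR-148b (SE 0.23, adjusted p = 4.4e-10), by limma over the 93 hairpins with both arms listed. Of those 93, 77 passed in either direction (82.8%): 42 favoured the 3p arm (45.2%) and 35 the 5p arm. By the size of this difference miR-148a was in place 3 and miR-148b in place 7 of 93.

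Within WT the arms did not all vary together. Over the 8 WT libraries, Pearson's r of log2 values with miR-148a-3p was 0.94 for miR-152-3p, 0.77 for miR-148b-3p and 0.96 for miR-148b-5p, but -0.03 for miR-148a-5p, the other arm of the same hairpin. These correlations describe libraries that share their depth and scaling. miR-148a-5p had 6 to 72 reads a library, so counting error can hide a relation. Over 306 other miRNAs with a mean of at least 10 and reads in every WT library, the median r with miR-148a-3p was 0.80.

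The share of miR-148a-3p was set against depth within each genotype. In WT the share was lowest in the shallowest libraries, and log2 share rose with log10 depth (Pearson's r = 0.92, exact permutation p = 0.0029, adjusted over the 2 relations computed p = 0.0059; Spearman's rho = 0.69, p = 0.0694, adjusted p = 0.139; n = 8). The relation rested on replicates 1 and 8: without them r was 0.53 (exact permutation p = 0.303, n = 6). In A30P, whose shares were what the family was picked for, the relation is given with no test: r was -0.69 and rho -0.11 (n = 7). Without replicates 6 and 8, the libraries farthest from the median depth, r was -0.14 (n = 5), and without replicate 6 alone it was 0.23 (n = 6). Depth and genotype overlapped little, and A30P replicate 6 was the only A30P library inside the WT range of depth. At a depth between those of WT replicates 8 and 3, it held 11.6% miR-148a-3p against 0.453% and 0.848% in these. The part of depth in the share was not tested.

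**Figure D3:**
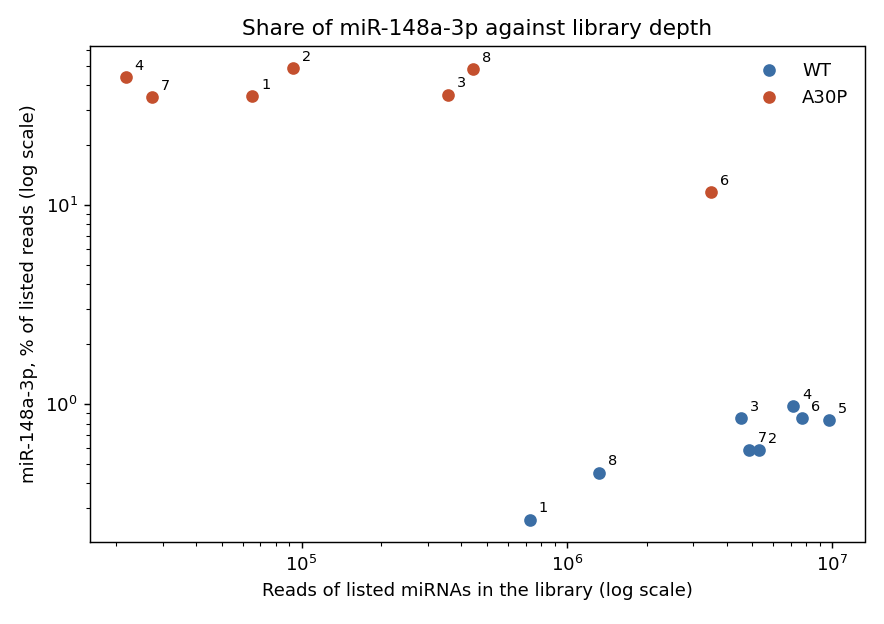
Share of miR-148a-3p in the listed reads (percent, log axis) against the reads of listed miRNAs in the library (log axis), with 1 point per library labelled by its replicate number. WT libraries lie at 0.263% to 0.978% and A30P libraries at 11.6% to 48.6%, with A30P replicate 6 lowest among A30P.

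Set among all 396 miRNAs, only miR-148a-3p stood apart within the family. Its fitted log2 difference, A30P minus WT, was 6.44 (SE 0.47), in place 1 of 396, while the median over all miRNAs was -2.57. The other members were at -1.10 (SE 0.78, miR-148b-5p), -1.42 (SE 0.58, miR-148a-5p), -2.13 (miR-148b-3p) and -3.20 (miR-152-3p), in places 95 to 252. The sign of 3 of them turned in other fits: with TMM scaling edgeR gave 1.22 for miR-148b-3p and 0.93 for miR-148b-5p, and DESeq2 gave 0.60 for miR-148a-5p. miR-152-3p was at -0.73 in edgeR with TMM scaling. By limma 314 of 396 miRNAs (79.3%) were called, 33 (8.33%) higher in A30P and 281 (71.0%) lower. edgeR with TMM scaling on the recovered reads called 62 of 318 higher (19.5%) and 114 lower (35.8%), with a median difference of -0.75, so the split of higher and lower calls moved with the fit. In limma, TMM scaling brought the median difference to -1.88, and dividing by each library's listed reads to -2.96. The pseudocount moved it more: the median was -4.34 with a pseudocount of 0.1 and -1.07 with a pseudocount of 10. The size of the median shift thus depends on how low counts and zeros are treated.

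The authors' deposited table gave other values for the low members. Its log2 fold change was 5.06 (SE 0.69) for miR-148a-3p. In the authors' deposited table miR-148b-3p was at 2.43 (SE 0.54), miR-148a-5p at 1.13 (SE 0.70), miR-148b-5p at 0.81 (SE 0.68) and miR-152-3p at 0.15 (SE 0.67). These are all above 0, whereas the limma differences of the same 4 arms are below 0. For miR-148b-3p, miR-148b-5p and miR-148a-5p at least 1 of the other fits above also gave a value above 0. Beyond the name DESeq, the sources used here do not give how the deposited fold changes were computed.

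**Figure D4:**
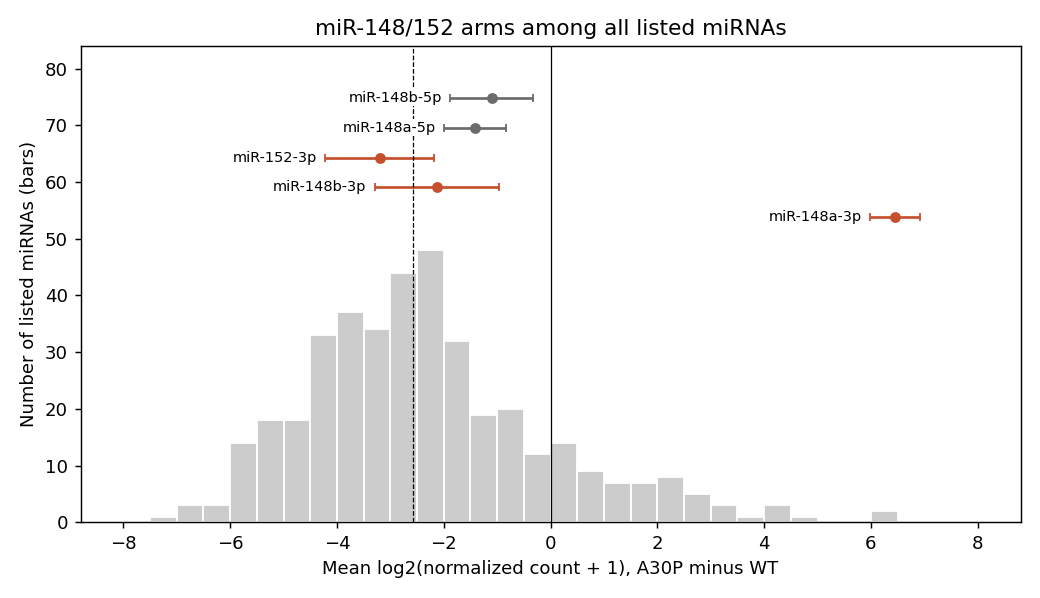
Distribution of the fitted difference in mean log2(normalized count + 1), A30P minus WT, over all 396 miRNAs (grey bars, number of miRNAs), with the 5 family arms as points with standard errors placed above the bars. The dashed line marks the median of -2.57, near which miR-148b-3p and miR-152-3p lie, while miR-148a-3p is at 6.44.

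The miRNAs most like miR-148a-3p were listed within each genotype. Over the 8 WT libraries, and among 306 other miRNAs with a mean of at least 10 and reads in every library, miR-135b-5p, miR-3071-3p, miR-872-5p, miR-376a-5p and miR-187-3p had the highest Pearson's r with it (0.98 for each). Such values were common there, since the median r was 0.80 and 105 of the 306 were over 0.9. Over the 7 A30P libraries the first 5 of 91 were miR-151-3p (r = 0.95), miR-708-3p (0.94), miR-30a-3p (0.94), miR-30c-2-3p (0.93) and miR-184-3p (0.87), against a median r of 0.01. The lists cannot be compared, since the requirement of reads in every library kept all 5 of the first list out of the A30P candidates, and the mean of at least 10 kept miR-184-3p out of the WT ones.

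The levels of those alike in A30P are given as a description, since the candidates had to be well counted in A30P. miR-708-3p, which lies in an intron of Tenm4 and belongs to the same miRNA family as miR-151, had 440 to 915 normalized counts in WT and 4988 to 21057 in A30P. miR-30a-3p had 607 to 1182 in WT and 2946 to 20076 in A30P. miR-30c-2-3p was at 129 to 255 in WT and 363 to 1507 in A30P, and miR-184-3p at 5.13 to 10.6 and 33.3 to 666. These ranges did not overlap, as for 16 of all 396 miRNAs (4.04%), and nothing is read from this, because the 4 were picked through A30P values.

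Other miRNAs known to restrain DNA methyltransferases were described beside the family. Of 14 listed arms, 1 was called higher, 10 lower and 3 did not pass by limma, against 8.33% and 71.0% over all miRNAs, with a median log2 difference of -2.96. The higher one was miR-143-3p, a smooth muscle miRNA, which rose from 3126 ± 1612 to 10046 ± 5859 normalized counts (log2 difference 1.60, SE 0.40, adjusted p = 0.0013). miR-29a-3p, which targets DNMT3A and DNMT3B, fell from 3249 ± 2212 to 181 ± 156 (-4.75, SE 1.02, adjusted p = 0.00040). miR-185-5p fell from 1486 ± 834 to 118 ± 111 and miR-221-3p from 669 ± 371 to 17.1 ± 21.5. miR-101a-3p did not pass by limma (945 ± 940 in WT, 1973 ± 955 in A30P, adjusted p = 0.0503) but passed in edgeR with TMM scaling (adjusted p = 0.00036). In edgeR 3 of these 14 arms were called higher and 5 lower, against 19.5% and 35.8% of all it tested.

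Of 17 listed arms of miRNAs known in cholesterol and lipid control other than the family, 2 were called higher, 12 lower and 3 did not pass by limma (median log2 difference -2.64). miR-128-3p, which is also a neuronal miRNA, fell from 45404 ± 11625 to 5405 ± 2575 (log2 difference -3.14, SE 0.28, adjusted p = 3.6e-08). miR-30c-5p fell from 10079 ± 3948 to 645 ± 775 and miR-27b-3p from 7075 ± 4123 to 1107 ± 1274. miR-30c-2-3p, the passenger arm of a miR-30c hairpin, was matched by name and rose from 190 ± 37.2 to 811 ± 362 (log2 difference 1.99, adjusted p = 0.00041). In edgeR with TMM scaling 4 of 14 tested arms were called higher and 7 lower, against 19.5% and 35.8% of all miRNAs it tested. By limma both lists thus had shares of calls near those of all miRNAs.

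Markers of tissues in which miR-148a is abundant, or which dissection could bring in, were read in the same libraries. Their counts of calls stand beside 8.33% higher and 71.0% lower over all miRNAs by limma, and 19.5% and 35.8% by edgeR with TMM scaling, and are too few to be set apart from these. The liver list (3 arms) summed to 54.9 to 322 normalized counts in WT and 0 to 184 in A30P. miR-122-5p, the defining liver miRNA, was at 24.0 ± 10.4 in WT and 24.3 ± 28.1 in A30P, with reads in 5 of 7 A30P libraries. By limma 0 of the 3 liver arms was called higher and 1 lower, while edgeR with TMM scaling called miR-122-5p higher (adjusted p = 0.0193) and miR-194-5p lower (adjusted p = 0.0162). The pancreas list (5 arms) summed to 60.5 to 309 in WT and 0 to 303 in A30P. Its endocrine marker miR-375-3p was at 69.6 ± 53.6 and 122 ± 104. By limma 0 of these 5 arms was called higher and 4 lower. Of 3 tested in edgeR with TMM scaling, miR-375-3p was called higher (adjusted p = 0.0012) and 0 lower. Among the arms lower by limma, miR-216b-5p, miR-217-5p and miR-216a-5p had WT means of 43.7, 26.7 and 10.1. In A30P replicates 1, 2, 4 and 7 a listing at 0 allows 52.6 normalized counts or more, so depth limits these calls. The part of these tissues in the level of miR-148a-3p was not tested.

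Markers of other cells were mixed, and the same shares over all miRNAs apply. The epithelium list (2 arms) summed to 11.0 to 84.8 in WT and 0 to 13.9 in A30P, with both arms called lower and 1 of them without reads in A30P. In A30P replicates 1, 2, 4 and 7 a listing at 0 allows 52.6 normalized counts or more. This is above the WT mean of miR-203-3p (46.5 ± 26.3), so depth limits these calls. The leukocyte marker miR-150-5p fell from 496 ± 130 to 38.7 ± 70.6 (limma adjusted p = 7.6e-05). Of 3 muscle arms, 1 was called higher, 1 lower and 1 did not pass, and the list summed to 181 to 2467 in WT and 339 to 2858 in A30P. miR-206-3p, a skeletal muscle miRNA, rose from 30.7 ± 14.0 to 174 ± 116 (limma adjusted p = 0.0110). In edgeR miR-1a-3p was called higher too (adjusted p = 0.0123). The muscle arm miR-499-5p was at 13.2 ± 10.9 in WT and 1.77 ± 2.29 in A30P, with reads in 3 of 7 A30P libraries (limma adjusted p = 0.0075). It was not among the miRNAs tested in edgeR, and depth limits this call in the same way as for miR-203-3p. Of 4 erythroid arms, 1 was called higher, 2 lower and 1 did not pass, and the list summed to 329 to 1584 in WT and 228 to 2459 in A30P. miR-451a, the red blood cell miRNA, rose from 78.5 ± 32.8 to 602 ± 636 (limma adjusted p = 0.0327). The joint entry of miR-486b-5p and miR-486a-5p was at 634 ± 480 in WT and 432 ± 209 in A30P (limma adjusted p = 0.471). miR-486a-3p was at 21.7 ± 15.9 in WT and 4.61 ± 7.16 in A30P, with reads in 3 of 7 A30P libraries (limma adjusted p = 0.0020). TMM-scaled edgeR left this arm uncalled, at a log2 difference of -0.53 (adjusted p = 0.565). Its WT mean is also under the 52.6 normalized counts that a 0 allows in the shallow A30P libraries, so depth limits the limma call. The part of these cells in the level of miR-148a-3p was not tested.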

How the data were processed

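Midbrain small RNA of 8 WT and 7 A30P samples was analysed from the authors' deposited table. Per the labels' protocols, a TruSeq kit was used on Trizol-extracted RNA. Column names begin with NEB, per the file headers. The submitters' processing notes name DESeq and mm9. For the aligner and counter nothing is given in the sources used here. The deposited signal values behave as counts divided by 1 factor per library: all values in each library were whole multiples of 1 step (within 1e-05), and reads were recovered from it. The authors' log2 fold changes are printed as such. The deposited score columns (group means and statistic) and the deposited p-values were not used.

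The columns named CT, read as control, were matched to WT samples by number. Limma 3.58.1 (trend, robust) was fitted on log2(normalized count + 1) over all 396 miRNAs, all of which had a mean of 1 or more in WT or A30P, with Benjamini-Hochberg adjustment at 0.05. Alternatives were edgeR 4.0.16 and DESeq2 1.42.0 on recovered reads, other scalings, pseudocounts and filters, the replicate block and left-out libraries. The limma, edgeR and DESeq2 fits and the arm fit were also run on simulated data with known changes. The outcomes are not reported here, and nothing is drawn from them about the fits at these depths. The analysis ran on R 4.3.3, Python 3.11.15 and scipy 1.17.1. Named were all family arms, the 5 miRNAs most like miR-148a-3p in each genotype, its neighbours in rank, and up to 5 members of each list by mean level. Of the marker lists, not every such member is printed. The members and lists were chosen with earlier results of these data known. Positions are from RefSeq and GENCODE vM21 (GRCm38), and no mm9 coordinates were used.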

Additional observations from a re-analysis of the deposited data

Results flagged for a closer look

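Among 21 sets of family values tested (1 measure in 1 genotype), 8 had a single library far from the others. The rule used would flag about 1 in 20 by chance if values were normally distributed. These were unlogged counts, shares and ratios, some from few reads, so the 8 cannot be set against that rate. Several of the sets also share a library and an arm.

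A30P replicate 6 stood apart in 3 of them. Its miR-148b-3p value was 4670 normalized counts against 0 to 379 in the other A30P libraries, its share of miR-148a-3p was 11.6% against 34.8% to 48.6%, and its ratio of miR-148b-3p to miR-148b-5p reads was 688 against 5.00 to 89.0. It is also the deepest A30P library, at 3500431 reads. WT replicate 8 stood apart in 3 others, with ratios of miR-148a-3p to miR-152-3p of 120 (others 25.9 to 59.6), of miR-148b-3p to miR-152-3p of 40.1 (others 3.71 to 7.65) and of miR-148b-3p to miR-148b-5p of 334 (others 56.9 to 176). In WT replicate 8 the ratios rest on 50 reads of miR-152-3p and 6 of miR-148b-5p.

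In WT replicate 3 the ratio of miR-148a-3p to miR-148a-5p was 3210, against 318 to 1591, from 12 reads of the 5p arm. In A30P replicate 2 miR-148b-5p was at 40.2 normalized counts, against 0 to 6.79, from 2 reads. The causes were not tested.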

How the results depend on the processing

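The fitted difference of miR-148a-3p was above 0 in all fits run, at 6.23 to 6.84 with single libraries left out, 5.68 without the 4 A30P libraries under 100000 reads, 5.76 with scaling by listed reads, 7.57 with TMM scaling and 7.83 in edgeR with TMM scaling. That of miR-148b-3p was negative in most fits (-2.94 to -0.91 with single libraries left out) but 1.22 in edgeR with TMM scaling, 0.084 in edgeR with the deposited size factors and 0.23 without the 4 libraries under 100000 reads. miR-152-3p stayed below 0 (-3.59 to -2.62 with single libraries left out, -0.73 in edgeR with TMM scaling). For the 5p arms, miR-148a-5p was at -1.87 to -1.25 with single libraries left out, -3.55 with a pseudocount of 0.1, 0.60 in DESeq2 and -0.095 without the 4 shallow libraries, and miR-148b-5p was at -1.68 to -0.79, and at 0.93 in edgeR with TMM scaling. The causes were not tested.

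The count of called miRNAs was 314, 299 to 325 with single libraries left out, 238 without the 4 shallow libraries, and 176 in edgeR with TMM scaling. Within WT, leaving out single libraries gave 9.45 to 9.89 and 6.25 to 6.54 for the arm differences of miR-148a and miR-148b, 2.49 to 2.77 for miR-148a-3p minus miR-148b-3p, 2.43 to 2.91 for miR-148b-3p minus miR-152-3p and 5.20 to 5.51 for miR-148a-3p minus miR-152-3p and 3.58 to 3.81 for miR-152-3p minus miR-148b-5p, and no call among these changed. miR-148b-5p minus miR-148a-5p was 0.92 without WT replicate 1, where it passed, and 0.42 at the lowest. The WT correlation of share with depth fell to 0.53 without replicates 1 and 8, and that in A30P turned to 0.23 without replicate 6. The main fit did not pair samples by replicate number. The correlation of deviations of same-numbered libraries was over 0.1 in 2 of 7 pairs (-0.13 to 0.31, highest in replicate 6). This does not settle whether the numbers pair the samples, since depth enters the deviations. With the replicate block limma called 297 miRNAs, and the differences were 6.55 for miR-148a-3p and -1.97 for miR-148b-3p. Depth limits the low arms: in A30P a listing at 0 allows 0.522 to 169 normalized counts.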
